A study of Mus musculus with 2 samples.

Results

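Myeloid growth factors and their receptors were followed across the cells of mouse tumors: the ligands Csf1, Csf2 and Flt3l and the receptor chains Csf1r, Csf2ra, Csf2rb, Csf3r and Flt3. These 8 genes were chosen by name, and all 8 were found among the 16416 genes of the table. The ligands were read mainly in tumor, Stromal and lymphocyte clusters, and the receptors in myeloid and dendritic cell (DC) clusters, as the deposited annotation names them. Tumors had been engrafted in hosts with normal heat shock factor 1 (HSF1; WT) or with HSF1 that carries alanine in place of its serines 303 and 307 (S303/7A), and 1 single-cell library was made per genotype. Live cells with and without the leukocyte marker CD45 were sorted and mixed 5 to 1, and the submitters state that tumors of 4 mice were pooled, without saying whether this holds for each genotype. The sources used here do not give the tumor line or the age and strain of the mice. Because each genotype is 1 library, no difference below has a replicate check, no p-value is given, and every 95% interval covers counting error only.

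CSF1, also called M-CSF, acts on monocytes and macrophages through the tyrosine kinase CSF1R and supports their survival and differentiation. CSF2, also called GM-CSF, is a cytokine of activated lymphocytes whose receptor pairs the chain CSF2RA with the shared signalling chain CSF2RB, while CSF3R is the receptor of the neutrophil growth factor G-CSF. FLT3L, made by NK cells and T cells among others, acts on FLT3, a tyrosine kinase of DC precursors and DC, and in tumors these pathways are known for setting the numbers of macrophages, neutrophils and DC.

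The WT library held 6654 cells and the S303/7A library 4802 cells, with medians of 7698 and 13028 UMIs (unique molecular identifiers, each standing for 1 RNA molecule) in a cell. The median S303/7A macrophage (MF) was 2.61 times as deep as the median WT one, against 1.10 times for Tumor and Stromal cells. Levels are therefore given as UMIs of a gene per 10000 UMIs of the cluster or class. The libraries shared 48 cell barcodes. Hsf1 RNA was at 0.217 in WT and 0.141 in S303/7A, which does not show whether the alanine codons were present. Marker genes fitted the names of most clusters: the neutrophil markers S100a8, S100a9, Retnlg and Cxcr2 summed to 228 per 10000 in WT and 217 in S303/7A in cluster C18, and the monocyte (Mo) markers Ly6c2, Plac8, Chil3 and Ccr2 to 202 and 103 in C07. The Stromal cluster C15 held low levels of its candidate markers, 2.43 and 1.07 for fibroblast or pericyte genes and 0.857 and 2.41 for endothelial genes. Macrophage RNA was found in all 11 classes, and the complement gene C1qa was at 0.946 in WT and 2.29 in S303/7A CD8 T cells (CD8T), and at 0.280 and 0.519 in Tumor cells.

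Most receptor levels in myeloid cells and DC differed by less than 1.5-fold between the libraries, while some ligand levels differed by more. A ratio is the S303/7A level over the WT level, and it was counted where it reached 1.5-fold either way and the gene had at least 0.1 UMI per 10000 in 1 library. Of 12 pairs of receptor and class past that level in MF, Mo and DC, 1 reached 1.5-fold, Csf1r in DC, beside 15.1% of all genes in those classes (8.7% higher in S303/7A). Of 9 pairs of ligand and class in Tumor, Stromal, CD8T, NK and regulatory T (Treg) cells, 4 reached it, beside 19.4% of all genes there (6.34% higher and 13% lower). These were Csf2 in CD8T, higher in S303/7A, and Csf1 in Stromal, NK and Treg cells, lower in S303/7A, of which the NK and Treg intervals hold 1. The interval excluded 1 for 6 of the 12 receptor pairs, 2 above and 4 below it. Among the 9 ligand pairs it did so for 3, 2 above and 1 below. The same share over all genes was not computed, so these interval counts have no background. Receptors and ligands were not tested against each other. Counted as UMIs per cell with no scaling, 11 of the 12 receptor pairs passed 1.5-fold. The share of all genes was not computed on that scale. Median depth was 2.61 times as high in S303/7A for MF, 2.10 times for Mo and 1.78 times for DC. The per-cell count is therefore not read as a result about the receptors.

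**Figure D1:**
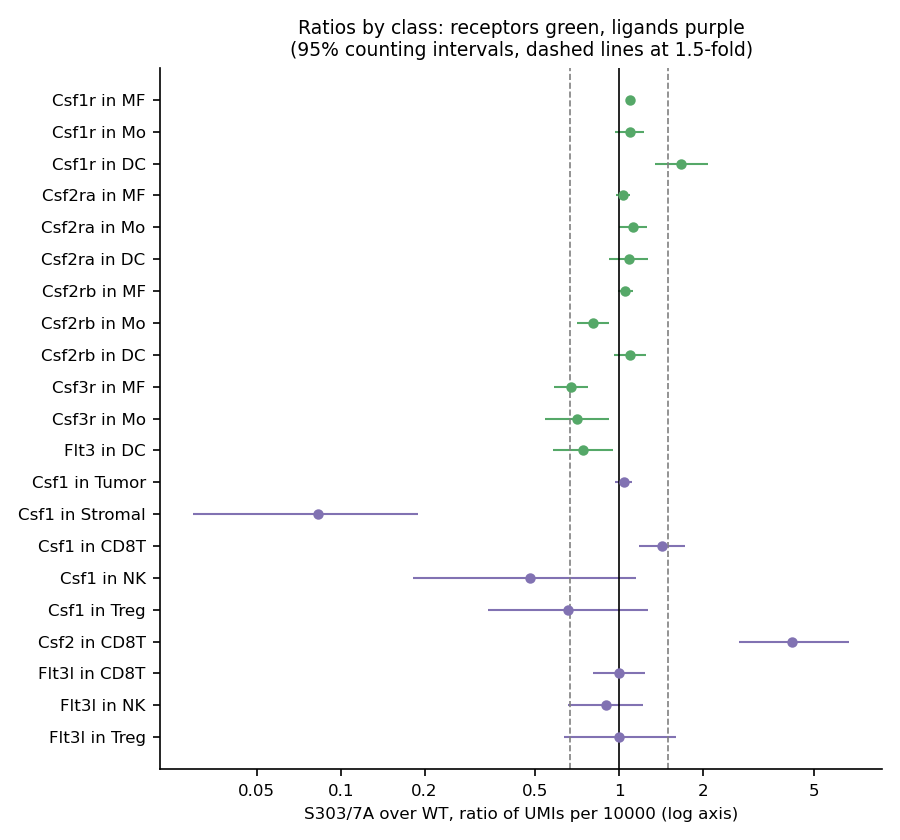
Ratio of levels, S303/7A over WT, on a log axis for each pair of gene and class past the level minimum, with receptors in green and ligands in purple. Bars are 95% counting intervals and dashed lines mark 1.5-fold; Csf1 in Stromal at 0.083 and Csf2 in CD8T at 4.17 lie farthest from 1.

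By the mean of the libraries, Csf1 was highest in the CD8T cluster C06, followed by the neutrophil cluster C18 and the tumor clusters. In C18 it was at 0.408 in WT and 0.807 in S303/7A from 4 and 15 UMIs (34.2% of all genes higher past 1.5-fold). The Stromal cluster C15 had the highest WT level of any cluster, 0.630, but was at 0.0523 in S303/7A. Of the Csf1 UMIs in CD45-positive classes, CD8T held 51.0% in WT and 47.3% in S303/7A. MF, at a level of 0.0868 in both libraries, held 29.0% and 40.6%. Cells of the MF cluster C05 with a UMI of the T cell transcript Cd3e held 55 of the 103 WT and 179 of the 255 S303/7A MF UMIs. C05 cells without it held 4 and 13. As described below, ligand levels in C05 cannot be assigned to macrophages. The Csf1 gene lies on chromosome 3 from 107741048 to 107760469 (GRCm38, minus strand). In the tumor clusters its level was 0.389 per 10000 in WT and 0.451 in S303/7A in C01, 0.427 and 0.380 in C04, 0.443 and 0.405 in C08, and 0.357 and 0.470 in C14. The tumor clusters thus lay close together in both libraries, and the ratio over all Tumor cells was 1.04 (95% interval 0.969 to 1.12) on 2559 and 1170 UMIs. A Csf1 UMI was found in 46.0% of WT and 58.1% of S303/7A cells of C01, against 4.01% and 3.67% in the macrophage cluster C03, and after thinning each cell to 1000 UMIs in 4.02% and 4.91% of C01 and 0.535% and 0.550% of C03. The median UMIs of a cell were 17991 and 22114 in C01 and 6554 and 13123 in C03. The deposited copy number groups of the tumor cells did not part in Csf1 either, with levels from 0.397 to 0.436 over 3 groups and both libraries. Il34, which encodes a second ligand of CSF1R, was also a tumor cell transcript, at 0.419 in WT and 0.308 in S303/7A over the class, a ratio of 0.735 (0.680 to 0.795). In C04, 47.3% of WT and 49.6% of S303/7A cells held UMIs of both Csf1 and Il34, close to the 46.0% and 47.3% that the product of the single shares gives.

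Among lymphocytes Csf1 was highest in C06, the larger CD8T cluster, at 0.562 in WT and 0.741 in S303/7A, a ratio of 1.32 (1.05 to 1.67). In the cycling CD8T cluster C11 it was at 0.242 and 0.221, a ratio of 0.916 (0.635 to 1.31). Over the whole class the ratio was 1.42 (1.18 to 1.72), which holds a change in the mix of the clusters: C06 had 387 of 693 CD8T cells in WT and 441 of 617 in S303/7A. In NK cells Csf1 was at 0.139 and 0.0663 and in Treg at 0.291 and 0.190. These values rest on 19 and 8 UMIs in NK and on 20 and 21 in Treg, and both intervals of the ratio hold 1.

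The widest Csf1 difference was in the Stromal cluster, where a few WT cells carried much of it. Csf1 was at 0.630 in WT, from 75 UMIs in 163 cells, and at 0.0523 in S303/7A, from 6 UMIs in 138 cells, a ratio of 0.083 (0.030 to 0.189) where 38.0% of all genes passed 1.5-fold (30.8% of all genes lower). In WT, 26 cells held a Csf1 UMI, and the highest of them held 27 and 14, together 41 of the 75. Without these 2 cells WT was at 0.293 and the ratio was 0.179 (0.061 to 0.431). In S303/7A, 6 cells held 1 UMI each. By copy number group, the WT Stromal cells of the group CNV3 were at 2.20 from 42 cells and 59 UMIs, which include the 41 of the 2 highest cells, while the 16 S303/7A cells of that group held none, which allows up to 0.179. In CNV1 Csf1 was at 0.386 and 0.0547, from 15 and 2 UMIs, and in CNV2, the largest group, at 0.0187 and 0.0652, from 1 and 4 UMIs, so CNV2 went the other way. The fibroblast or pericyte markers given above were lower and the endothelial markers higher in the S303/7A Stromal cells, and C1qa was at 1.56 and 0.427, so other transcripts moved with Csf1 there. Their part in the difference was not tested.

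Csf2 was a rare transcript of CD8 T cells, and its level was higher in the S303/7A library. The gene lies on chromosome 11 from 54247271 to 54249667 (minus strand). All cells together held 215 Csf2 UMIs. In C06 the level was 0.101 in WT, from 19 UMIs in 12 cells, and 0.279 in S303/7A, from 91 UMIs in 39 cells, a ratio of 2.77 (1.67 to 4.80). In C11 it was 0.0193 and 0.117, from 6 and 29 UMIs, a ratio of 6.04 (2.46 to 17.8), beside 6.99% of genes higher past 1.5-fold in C06 and 6.06% in C11. The class as a whole was at 0.0501 and 0.209, a ratio of 4.17 (2.69 to 6.69), where 9.08% of genes passed 1.5-fold and 4.66% were higher. Both CD8T clusters thus stood higher in S303/7A, with intervals that do not overlap within either cluster.

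The UMIs lay in few cells. In C06, 3.10% (1.61 to 5.35) of WT and 8.84% (6.36 to 11.9) of S303/7A cells held a Csf2 UMI, beside 0 of 374 cells (which allows up to 0.802%) and 0.184% in the macrophage cluster C03. After thinning, 1.03% and 1.13% of C06 cells and none of C03 held one, from median depths of 4577 and 7035 UMIs in C06. The highest C06 cell held 7 UMIs in WT and 16 in S303/7A, and 3 S303/7A cells with 5 or more UMIs held 37 of the 91. Leaving out the highest CD8T cell of each library gave a ratio of 5.02 (3.02 to 8.79). The size of the difference depended on the measure: the ratio was 1.94 for the mean over cells with a pseudocount of 0.1 per 10000, from means of 0.0706 and 0.231. It was 1.28 after thinning, which left 7 UMIs in WT and 8 in S303/7A, too few to read a difference from. In C06 cells without a C1qa UMI, Csf2 was at 0.123 and 0.291, from 14 UMIs in 7 cells and 30 UMIs in 15 cells. The intervals overlap (0.0671 to 0.2059 and 0.1964 to 0.4155). Whether a C1qa UMI is seen depends on depth, and these cells had medians of 4401 and 6474 UMIs. The part of macrophage RNA in the Csf2 difference was not tested.

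The C06 cells that held Csf2 also held more Csf1 than the other cells of the cluster. In S303/7A, Csf1 was at 1.24 in the 39 cells with Csf2 and at 0.687 in the 402 cells without it, a ratio of 1.80 (1.25 to 2.54). In WT it was at 1.35 in 12 cells, from 8 UMIs, and at 0.537 in 375 cells, a ratio of 2.51 (1.05 to 5.14). The median UMI count of cells with and without Csf2 was 7783 and 7014 in S303/7A, and 4574 and 4577 in WT. In the same S303/7A cells the macrophage transcripts Ms4a7 and Cd68 were also higher, with ratios of 1.78 (1.17 to 2.62) and 1.75 (1.08 to 2.72), while C1qa was at 1.12 (0.893 to 1.39) and Csf1r at 1.01 (0.314 to 2.54). Their part in the Csf1 difference was not tested. In NK cells Csf2 was at 0.0583 and 0.0332, from 8 and 4 UMIs, and no difference was detectable at that depth. Tumor cells held 4 and 3 Csf2 UMIs in all.

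The level of Flt3l was highest in lymphocytes and differed little between the libraries in the NK, Treg and CD8T clusters. The gene lies on chromosome 7 from 45129788 to 45136432 (minus strand). It was highest in NK cells, at 0.715 in WT and 0.638 in S303/7A, a ratio of 0.894 (0.654 to 1.22). In Treg it was at 0.480 in both libraries (ratio 0.999, 0.635 to 1.59), in C06 at 0.472 and 0.371 (0.785, 0.592 to 1.04) and in C11 at 0.235 and 0.262. Neighbours in that order have overlapping intervals in at least 1 library. Tumor clusters were between 0.0199 and 0.0524. At such low levels the libraries differed more in the DC cluster C16, at 0.0582 in WT and 0.152 in S303/7A. In Stromal cells Flt3l was at 0.0588 and 0.00872, from 7 and 1 UMIs. A Flt3l UMI was found in 22.7% of WT and 31.4% of S303/7A NK cells, and in 5.40% and 5.70% after thinning, from median depths of 3621 and 5864 UMIs, beside 2.67% and 7.89% (0.267% and 0.734% thinned) in the macrophage cluster C03.

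Counting all Flt3l UMIs of CD45-positive classes, CD8T held 36.7% in WT and 27.9% in S303/7A, NK cells held 22.2% and 11.5%, and MF held 26.3% and 43.2%. The MF level was low, 0.0978 and 0.0980 per 10000, and was highest among MF clusters in C05, at 0.181 and 0.153. C05 cells with a UMI of the T cell transcript Cd3e held 41 of the 116 WT and 135 of the 288 S303/7A MF UMIs. C05 cells without it held 22 and 18. Ligand levels in C05 cannot be assigned to macrophages, as described below. MF were 47.7% and 55.8% of the CD45-positive cells, CD8T 16.7% and 16.6%, and NK cells 8.58% and 5.20%. These parts depend on the depth of each class, which differed most between the libraries in MF. Of Csf2 UMIs in CD45-positive classes, CD8T held 62.5% (25 of 40) and 71.9% (120 of 167).

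**Figure D2:**
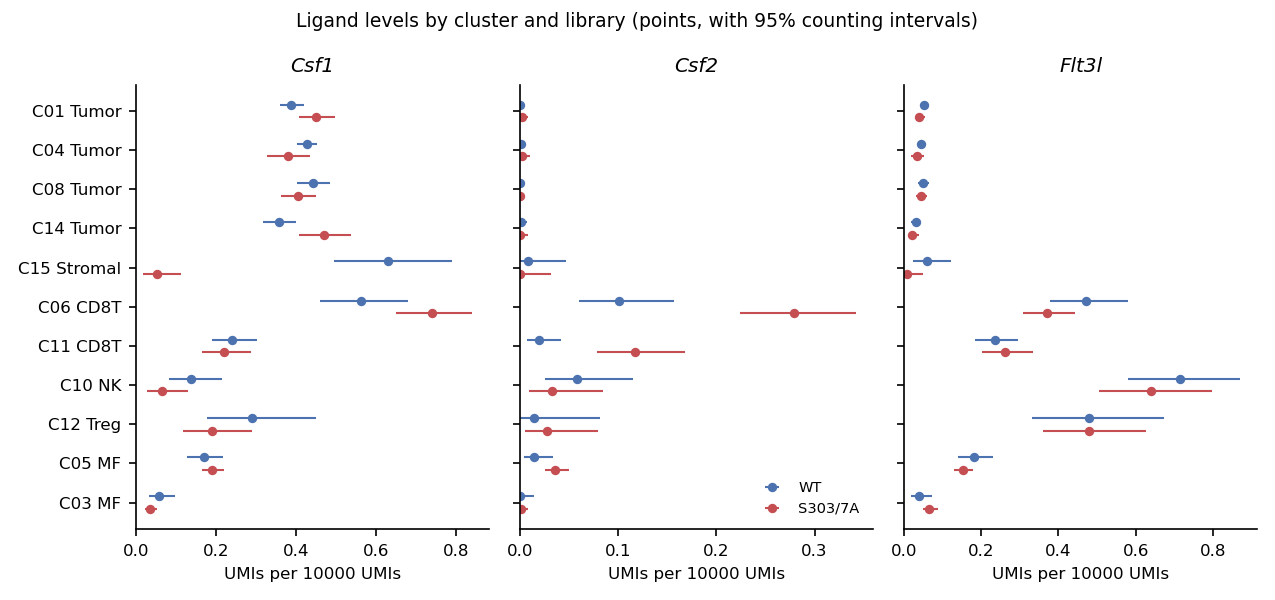
Levels of Csf1, Csf2 and Flt3l in UMIs per 10000 UMIs by cluster (rows), WT in blue and S303/7A in red, with 95% counting intervals. Csf1 is between 0.357 and 0.470 in the tumor clusters, Csf2 is highest in C06 in both libraries and Flt3l is highest in the NK cluster C10.

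One macrophage cluster held ligand RNA that followed T cell transcripts. In C05, which was deposited as MF, 217 of 362 WT and 446 of 527 S303/7A cells held a UMI of Cd3e, a chain of the T cell receptor complex. The 5 WT and 21 S303/7A cells of C05 with a Csf2 UMI all held Cd3e as well, and C05 accounted for 5 of the 6 and 36 of the 38 Csf2 UMIs of the MF class. Csf1 in C05 was at 0.243 in WT cells with Cd3e and 0.0330 in WT cells without it, and at 0.204 and 0.106 in S303/7A. Flt3l did not part in this way, at 0.181 with and 0.181 without Cd3e in WT and at 0.154 and 0.146 in S303/7A. The cells of C05 included 51.4% (WT) and 24.7% (S303/7A) that were among the cells with the highest doublet scores, against 0.367% to 0.802% of C03 and C06, and ligand levels in C05 cannot be assigned to macrophages.

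**Figure D3:**
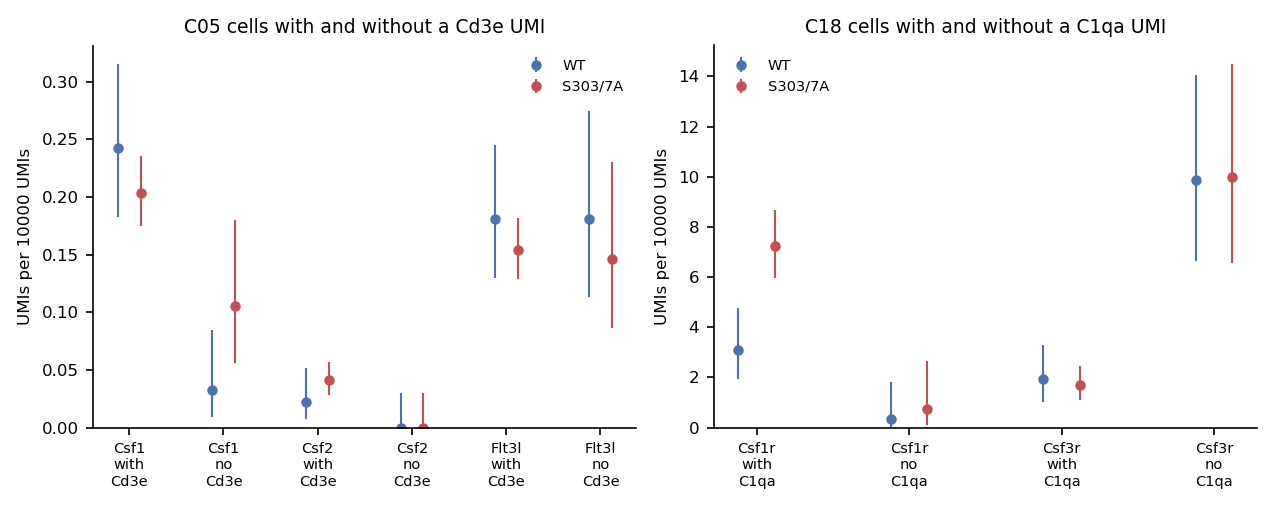
Levels in UMIs per 10000 UMIs, with 95% counting intervals, of the ligands in C05 cells with and without a Cd3e UMI (left) and of Csf1r and Csf3r in C18 cells with and without a C1qa UMI (right), WT in blue and S303/7A in red. Csf2 is found in the Cd3e-holding cells of C05, and Csf3r is near 10 in both libraries in C18 cells without C1qa.

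Csf1r was a macrophage transcript, and its level over the MF class was nearly the same in the libraries. The neutrophil cluster C18, which held macrophage RNA, is described separately and in S303/7A lay above every MF cluster. The gene lies on chromosome 18 from 61100598 to 61132149 (plus strand). It was highest among MF clusters in C03, at 5.07 in WT and 5.17 in S303/7A, and next came C13 (4.36 and 3.96) and C09 (3.71 and 4.52), whose order differed between the libraries. The lowest MF clusters were C02 (3.17 and 3.43) and C05 (2.90 and 3.59), and the monocyte cluster C07 was at 2.16 and 2.36. C05 cells without a Cd3e UMI were at 3.485 and 4.26, and those with it at 2.593 and 3.492. Without Cd3e, C05 thus lay above C02 in both libraries. Over the MF class the ratio was 1.09 (1.06 to 1.13) on 4362 and 11817 UMIs, and the MF clusters ranged from 0.907 to 1.24. A Csf1r UMI was found in 92.5% of WT and 98.5% of S303/7A cells of C03, and in 39.3% and 42.0% after thinning. In CD8T, which should lack the receptor, 3.03% and 10.9% of cells held one (0 and 1.30% thinned, from median depths of 6294 and 8325 UMIs), and the level was 0.0521 and 0.155.

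In DC the Csf1r level was higher in S303/7A, together with macrophage transcripts. It was 0.616 in WT and 1.03 in S303/7A over the class, a ratio of 1.66 (1.34 to 2.08), where 14.7% of genes passed 1.5-fold and 7.71% were higher. The difference lay in C16, the cluster with the markers of type 2 conventional DC (0.897 and 1.44), and in C20, the cluster with those of type 1 conventional DC (0.275 and 0.846). In the mature DC cluster C17 the levels were 0.401 and 0.412. The macrophage markers C1qa, C1qc, Adgre1, Ms4a7 and Mrc1 summed to 4.16 and 12.4 in C16, 3.86 and 22.2 in C20, and 11.9 and 11.8 in C17. Among DC without a C1qa UMI, Csf1r was at 0.426 and 0.486, a ratio of 1.14 (0.730 to 1.78). In C20 that left 3 and 2 Csf1r UMIs.

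Csf1r was also higher in S303/7A in the neutrophil and plasmacytoid DC (pDC) clusters, which held too few cells to compare as classes. In these clusters 67.0% (C18) and 48.6% (C19) of all genes passed 1.5-fold, with 34.2% and 27.2% higher in S303/7A. In C18 Csf1r was at 2.25 in WT and 6.30 in S303/7A, and in the cells without a C1qa UMI 28 WT cells held 1 Csf1r UMI and 22 S303/7A cells held 2. In the pDC cluster C19 it was at 0.788 and 2.21 over all cells. In the C19 cells without C1qa it was at 0.413 from 5 UMIs and at 0.836 from 6 UMIs. In CD8T cells without C1qa it was at 0.0438 and 0.0485 in C06, and at 0.0289 and 0.0939 in C11, from 5 UMIs in each library and cluster.

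Promoters are shown for the receptor genes Csf2ra, Csf3r and Flt3, since these receptors differed in where they were found: across myeloid cells, in neutrophils, and in DC. Each run is the 250 bases before the RefSeq start on the gene's own strand (GRCm38.p6), read 5′ to 3′, with capitals marking GAGGAA, a core bound by ETS factors such as PU.1 (Spi1), searched on both strands.
Csf2ra, 19 from 61228419 to 61228668, minus strand: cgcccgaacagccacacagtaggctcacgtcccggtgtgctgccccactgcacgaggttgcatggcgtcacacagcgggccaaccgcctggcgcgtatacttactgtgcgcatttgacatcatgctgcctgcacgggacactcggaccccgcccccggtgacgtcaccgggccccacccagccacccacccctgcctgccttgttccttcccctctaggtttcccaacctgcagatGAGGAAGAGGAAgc
Csf3r, 4 from 126024409 to 126024658, plus strand: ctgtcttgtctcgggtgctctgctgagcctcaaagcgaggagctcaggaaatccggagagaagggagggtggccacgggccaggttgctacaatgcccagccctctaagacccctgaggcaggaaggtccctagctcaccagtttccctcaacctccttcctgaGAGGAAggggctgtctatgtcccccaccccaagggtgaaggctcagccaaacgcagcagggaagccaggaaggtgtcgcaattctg
Flt3, 5 from 147400490 to 147400739, minus strand: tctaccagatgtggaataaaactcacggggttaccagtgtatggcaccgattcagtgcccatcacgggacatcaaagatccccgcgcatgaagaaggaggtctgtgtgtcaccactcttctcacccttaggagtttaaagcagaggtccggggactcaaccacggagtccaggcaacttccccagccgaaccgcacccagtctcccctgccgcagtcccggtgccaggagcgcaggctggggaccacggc
Csf2ra held 2 adjoining matches, Csf3r held 1 and Flt3 held none, and 23.25% of the 32851 promoters of this length in the table held at least 1. The RefSeq starts of Csf2ra and Csf3r lie inside the GENCODE genes, so the ends of both windows are transcribed by that annotation. For Csf3r this part begins at 126024550 and includes the marked GAGGAA. For Csf2ra it begins at 61228429 and includes the later of the 2 marked matches and the end of the earlier match. The motifs TGANTCA (AP-1) and GGAAA (the core of NFAT sites) were searched as well in the 6 promoters found for the 8 genes. TGANTCA was in none of the 6, and GGAAA was in each but that of Flt3, beside 55.57% of all promoters. The Csf2 window, from 54249900 to 54250149, does not reach the GENCODE gene, whose minus-strand start is at 54249667. The bases between them were not searched for either motif. A match describes the letters and shows no binding.

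Csf2ra and Csf2rb, the chains of the GM-CSF receptor, were found across monocytes, macrophages and DC at levels alike in the libraries. Csf2ra (chromosome 19 from 61223957 to 61228429, minus strand) was highest in C07, at 2.28 in WT and 2.56 in S303/7A, and in the MF cluster C02, at 2.11 and 2.44. The other MF clusters lay between 0.925 and 1.46, and the DC clusters between 0.920 and 1.72. The ratio was 1.03 (0.977 to 1.10) in MF, 1.12 (0.998 to 1.26) in Mo and 1.08 (0.921 to 1.27) in DC. Csf2rb (chromosome 15 from 78325752 to 78353847, plus strand) was highest in pDC, at 2.61 in both libraries, and in the mature DC cluster C17, at 2.41 and 2.78. It was at 1.82 and 2.10 in C16, 1.83 and 1.97 in C02, and 1.07 and 0.958 in C20. Its ratio was 1.05 (0.986 to 1.12) in MF and 1.09 (0.955 to 1.25) in DC.

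In monocytes Csf2rb went the other way, at 2.11 in WT and 1.70 in S303/7A, a ratio of 0.805 (0.706 to 0.916). The Mo ratio is below 1.5-fold, in a class where 23.8% of genes passed it. In C02, C07, C16 and C20, cells with UMIs of both chains were about as frequent as the product of the single shares. In C02, 34.9% of WT and 76.4% of S303/7A cells held both, beside products of 33.4% and 74.9%, and in C16 48.6% and 81.2% did, beside 45.9% and 78.9%. In C09 of S303/7A the share with both was 11.96%, beside a product of 6.30%, and in C18 of S303/7A 17.1%, beside 9.52%. The higher shares in S303/7A went with its greater depth, and after thinning to 1000 UMIs 2.28% and 3.99% of C02 cells held both. In CD8T a Csf2ra UMI was found in 4.47% and 6.48% of cells.

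Csf2rb2, the neighbouring gene for the interleukin 3 receptor's own beta chain, was highest among DC clusters in pDC, at 2.31 and 1.92 per 10000, and at 0.443 and 0.369 in C16. Of the 31-base words of the Csf2rb transcript 28.05% also occur in Csf2rb2, but 1.277% of those in its last 500 bases, where 3′ libraries read. Csf2rb lies 1.82 Mb and Csf2rb2 1.78 Mb from Hsf1 on chromosome 15.

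Csf3r was mainly a neutrophil transcript, with low levels in monocytes and macrophages that were lower in S303/7A over the Mo and MF classes. The gene lies on chromosome 4 from 126024550 to 126044440 (plus strand). In C18 it was at 4.39 in WT, from 39 cells, and 2.91 in S303/7A, from 41 cells (32.8% of all genes lower past 1.5-fold). In the C18 cells without a C1qa UMI, which numbered 28 and 22, it was at 9.85 and 9.97, from 30 and 27 UMIs. In the 11 and 19 cells of C18 that held C1qa it was at 1.92 and 1.70, from 13 and 27 UMIs. The levels of each kind of cell were thus alike in the libraries. The cells with C1qa held most of the cluster's UMIs of all genes, though not most of its Csf3r UMIs, and were more numerous in S303/7A. In C07 Csf3r was at 0.571 and 0.403, a ratio of 0.706 (0.542 to 0.918), and in C02 at 0.423 and 0.229, a ratio of 0.540 (0.429 to 0.680) where 7.74% of genes were lower past 1.5-fold. In C03 it was at 0.260 and 0.231 and in C05 at 0.230 and 0.1598, while in C09 (0.203 and 0.210) and C13 (0.107 and 0.133) the S303/7A level was the higher one. The MF class was at 0.281 and 0.189, a ratio of 0.672 (0.585 to 0.772), just short of 1.5-fold. Thinning to 1000 UMIs gave 0.430 for that class. The neutrophil markers summed to 0.0612 in WT and 0.0695 in S303/7A in C02. In C07 they summed to 0.0606 and 0.147, from 14 and 39 UMIs. The part of neutrophil RNA in the Csf3r differences was not tested.

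Flt3 was found in DC and close to 0 elsewhere. The gene lies on chromosome 5 from 147330741 to 147400489 (minus strand). It was at 1.06 in WT and 0.780 in S303/7A in C17, at 0.964 and 0.609 in C20, at 0.542 and 0.479 in pDC, and at 0.233 and 0.240 in C16. In MF it was at 0.00674 and 0.00681, and in CD8T 1 UMI was found in WT and none in S303/7A. Over the DC class it was at 0.638 and 0.472, a ratio of 0.739 (0.578 to 0.948). Among DC without a C1qa UMI the levels were 0.745 and 0.764, a ratio of 1.02 (0.726 to 1.44), so the direction of the class ratio was not kept there. The clusters within that pool went different ways. In C17 cells without C1qa Flt3 was at 1.19 and 0.982, from 40 and 31 UMIs in 61 and 36 cells. In C16 cells without C1qa it was at 0.2995 and 0.4355, from 14 and 17 UMIs. The intervals of the libraries overlap in both clusters. A Flt3 UMI was found in 66.7% and 74.3% of C20 cells, and in 43.3% and 45.9% of C17 cells. After thinning the shares were 7.41% and 5.71% in C20, from median depths of 12333 and 23793 UMIs, and 13.8% and 9.52% in C17, from 5666 and 10450. In C20, 59.3% of WT and 71.4% of S303/7A cells held both Flt3 and Csf2ra, beside products of 59.3% and 67.9%. Flt3 and Csf1r were found together in 18.5% and 20.0% of C20 cells, beside 17.3% and 29.7%.

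**Figure D4:**
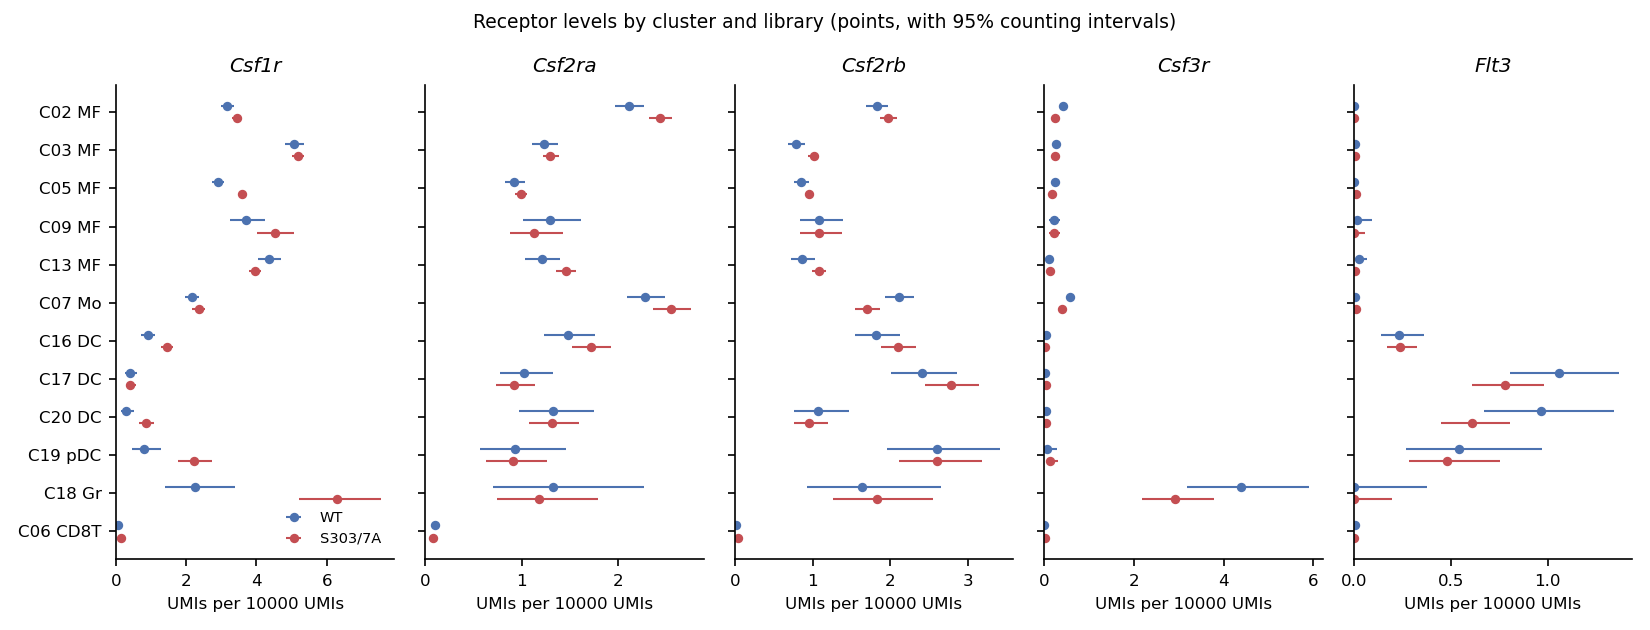
Levels of the 5 receptor genes in UMIs per 10000 UMIs by cluster (rows), WT in blue and S303/7A in red, with 95% counting intervals; the CD8T cluster C06 is shown as a population that should lack them. Csf1r is highest among MF clusters in C03, Csf3r in the neutrophil cluster C18, and Flt3 is seen in the DC and pDC clusters.

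Genes of the pathway beyond these 8 were counted from lists. Among related ligands and receptors, 3 were measured in MF, 3 in Mo and 4 in DC, and 1 passed 1.5-fold, beside 15.1% of all genes in these classes and 23.8% in Mo: Il3ra, a chain of the interleukin 3 receptor, at 0.537 in WT and 0.309 in S303/7A monocytes (ratio 0.576, 0.430 to 0.767). Kit, the receptor of stem cell factor, was the 1 of 3 measured in CD8T that passed (background 9.08%), at 0.0240 and 0.106 from 12 and 61 UMIs. It was at 5.30 and 4.85 in the mast cell cluster C22. Kitl, the ligand of KIT, was a tumor transcript at 0.156 and 0.180, and none of the 6 related genes measured in Tumor cells passed 1.5-fold (background 6.01%). The genes Csf3, Il3, Il5 and Il5ra of that list were not analysed here.

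Of 17 genes of signalling below the receptors in MF, 1 was higher and 1 lower past 1.5-fold, beside 7.63% of all genes (3.92% higher and 3.7% lower), with a median log2 ratio of −0.10 against 0.04 for all genes. Socs1, a feedback inhibitor of JAK kinases, was lower in each myeloid class: 0.733 in WT and 0.358 in S303/7A in MF, 4.16 and 1.75 in Mo, and 0.966 and 0.580 in DC. It was the only 1 of 17 in Mo and of 18 in DC to pass, beside 8.68% of genes lower in Mo and 6.97% in DC. Socs2, a feedback inhibitor induced through STAT5, was higher in MF at 0.0877 and 0.156. The STAT5 genes themselves differed little, with Stat5a at 0.0868 and 0.0929 and Stat5b at 0.177 and 0.150 in MF.

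Of 13 transcription factors of myeloid cells and DC, none passed 1.5-fold in MF, 3 of 13 were lower in Mo, and in DC 1 of 15 was higher and 2 lower: Cebpb, Maf and Batf3 in Mo, and Maf (higher), Cebpb and Tcf4 in DC. The shares of all genes beside these counts are 7.63% either way in MF, 8.68% lower in Mo, and 7.71% higher and 6.97% lower in DC. Spi1, which encodes PU.1, was at 5.28 and 5.25 in MF. Cebpb, a factor of inflammatory myeloid gene expression, was at 22.9 and 14.3 in Mo and 2.01 and 1.04 in DC. Of 9 macrophage genes known to depend on or follow CSF1 signalling, 1 passed in MF (background 7.63%), the lipid receptor Trem2, at 1.81 in WT and 3.52 in S303/7A. In Mo 1 of 8 passed, Trem2, and in DC 2 of 8 were higher, Itgam and Trem2, and 2 lower, Ccnd1 and Plaur, beside 23.8% of genes either way in Mo and 14.7% in DC. Trem2 was also higher in Mo (0.390 and 0.991) and in DC (0.0735 and 0.408), beside the higher C1qa there of 8.02 and 23.3 in Mo and 3.18 and 6.89 in DC. Whether the macrophage RNA carries it was not tested.

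Over 21 clusters with the libraries pooled, the 3 nearest neighbours of each gene were taken by Pearson correlation of log2 levels. Csf1r was nearest to Fcgr2b (r = 0.98), Adgre1 (0.98) and Cd300c2 (0.98), and the neighbours of Csf2ra included Rassf4 (0.99) and Spi1 (0.98). Csf2rb was nearest to Pirb (0.96), then to Csf2ra (0.96) and Rassf4 (0.95). Csf3r was nearest to Clec4d (0.97), Trem3 (0.96) and Cxcl2 (0.96), and Flt3 to Tbc1d8 (0.90), Cbfa2t3 (0.88) and Tspan33 (0.86). Among the ligands, Csf2 was nearest to Wdr95 (0.94), Cd226 (0.92) and Ifng (0.92), Flt3l to Sytl3 (0.96), Txk (0.94) and Cst7 (0.94), and Csf1 to Rgcc (0.84), Rcn1 (0.83) and Nrn1 (0.81). The clusters share libraries and were made from these genes' cells, so these values are a description. Ranked by Spearman correlation, 3 of these 24 neighbours stayed among the nearest 3.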

How the data were processed

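Single-cell libraries of tumors from WT and S303/7A mice were made with 10x Genomics 3′ version 2 chemistry, per the labels' protocols. Per the submitters' processing notes, Cell Ranger and Seurat 3.0 were used with mm10 or GRCm38; how cells and genes were filtered and whether counting used strand is not given in the sources used here. As deposited by the authors, expression is on a natural log scale, as ln(1 + UMIs per 100000 UMIs of the cell). The authors also deposited each cell's UMI count and gene count, its mitochondrial percent (at most 9.98%), library, cluster, class and copy number group. All deposited cells were used, the shallowest with 538 UMIs.

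Undoing the log returned whole UMI counts, with 99.94% of 32243534 values above 0 no more than 0.1 UMI from an integer, and totals differed from the deposited ones by at most 3. UMIs were summed by library and cluster or class, with exact Poisson intervals for levels, exact conditional (Clopper-Pearson) intervals for ratios and exact binomial intervals for shares. Where no UMI was found, the value said to be allowed is that of 3 UMIs or 3 cells, not the end of these intervals. Classes with at least 50 cells and clusters with at least 20 in each library were compared. Without replicates there is no test. As a check of the calculation, counts were simulated with Poisson error, which the intervals assume. Ratio intervals held the true value for 95.1% of the unchanged genes in MF (7005 genes in all) and 96.1% in CD8T (6658 in all). The simulation did not include UMIs gathered in few cells, as seen for Csf1 in Stromal cells and Csf2 in CD8T. It therefore does not show the coverage for those ratios. Alternatives were cells thinned to 1000 UMIs (199 WT and 63 S303/7A cells were shallower and left out), cells without a C1qa or Cd3e UMI, other scalings and level minimums, and doublets. The automatic threshold of Scrublet (scanpy 1.11.5) called 0.842% of cells doublets in WT and 0.0833% in S303/7A, which did not work in S303/7A, so the cells with the highest scores at the expected rate (361 and 207) were left out as an alternative.

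Named genes are the 8 genes, the members of 4 pathway lists, cell type markers, and for each of the 8 genes the 3 nearest genes by correlation over clusters with at least 50 cells, leaving out gene models, mitochondrial and ribosomal protein genes. Some genes that this rule names are not reported here. The genes and lists were chosen with earlier results of these data known. Which single ratios are treated as leading results, and the splits by Cd3e and C1qa, were chosen after levels had been seen. Positions come from GENCODE M21 on GRCm38. Csf1r overlaps Hmgxb3, Csf2 overlaps Gm12223, Flt3 overlaps Gm26597 and Flt3l overlaps Gm45713, and reads of these pairs could be exchanged by the counting. Python 3.11.15, numpy 2.4.6, scipy 1.17.1 and pandas 2.3.3 were used.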

Additional observations from a re-analysis of the deposited data

Results flagged for a closer look

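Csf1 and Csf1r differed between the libraries in opposite directions in different classes, and the differences between classes were not tested, with 1 library per genotype. The Csf1 ratio of S303/7A over WT was 1.42 in CD8T and 0.083 in Stromal cells. The Csf1r ratio was 2.97 (1.90 to 4.79) in CD8T, 1.66 in DC and 1.09 in MF, and 0.346 (0.191 to 0.599) in Stromal cells. C1qa moved beside Csf1r, with ratios of 2.42 in CD8T, 2.17 in DC, 1.38 in MF and 0.273 in Stromal cells. The part of macrophage RNA in the CD8T and Stromal ratios of Csf1r was not tested.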

How the results depend on the processing

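Each leading result was recomputed under other settings, 5 of which (the 2 top Csf1 cells, the top Csf2 cells, C05, and the C1qa splits of C18 and DC) were chosen after seeing the data. The count of receptor ratios past 1.5-fold, 1 of 12, was 11 per cell without scaling, 2 with scaling by the median gene, 2 thinned, 2 without the shallowest 10% of cells, 2 without the highest doublet scores, and 0 with a fold of 2 or the mean over cells. The ligand count of 4 was 1 with a level minimum of 0.5. The share of all genes was not recomputed under these settings, so these counts have no background. Per cell, ratios were 2.58 for Csf1r in MF, 3.05 for Csf1r in DC, 1.58 for Csf3r in MF and 1.36 for Flt3 in DC, and Csf1 in Treg turned to 1.22. Thinned, they were 1.18 for Csf1r in MF, 0.430 for Csf3r in MF, 1.28 for Csf2 in CD8T and 0 for Csf1 in Stromal cells, where no S303/7A UMI was left. The mean over cells gave 1.94 for Csf2 in CD8T and 0.2004 for Csf1 in Stromal cells. Csf1r in MF was 1.04 without the highest doublet scores, and Csf3r in MF 0.786 with clusters weighted equally. Without C1qa-holding cells, Csf1r in DC was 1.14, Flt3 in DC 1.02 (turned) and Csf3r in C18 1.01 (turned). Apart from what these settings remove or rescale by construction, the cause was not tested.

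Of 21 ratios, the direction was kept in 13 per cell, 19 thinned, 19 without high doublet scores, 19 with median scaling, 20 for the mean over cells and 21 without shallow cells. With MF and Mo merged it was kept in 5 of 8, as the merged ratio was 0.956 for Csf2rb and 0.999 for Csf2ra. Leaving out cells with markers of another lineage (in place of another class, with 7 shared markers dropped after values were seen) left 50 WT and 12 S303/7A tumor cells, and could not be run in CD8T and NK cells. There Csf1 in Tumor cells was 0.347. Depth limits Csf2 in NK, Treg and tumor cells and Csf1 in NK and Treg cells. No paired analysis was possible because each genotype has 1 library.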
